A study of Mus musculus with 18 samples.

Results

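Cochlear hair cells (HC) were compared with the epithelial non-hair cells (ENHC) of the same cochleae on 6 expression arrays, 3 for each cell type, out of 18 in the series. Both cell types came from newborn mice at postnatal day 1 (P1) of the Atoh1/nGFP line on the C57BL/6 background, in which Atoh1 sequences drive a nuclear green fluorescent protein (GFP) in hair cells. After enzymatic dissociation, cells with both GFP and CD326, the epithelial adhesion molecule encoded by Epcam, were collected as HC, and cells with CD326 alone as ENHC, which the sample labels call ENSCs. The labels name no treatment and no other allele, each sample was pooled from several mice, and GFP is a proxy for hair cell identity that depends on the transgene. The other 12 arrays hold cochlear non-epithelial cells (NEC), which lack both markers, and the 3 matching vestibular cell types. The question was which genes separate the mechanosensory cell of the newborn cochlea from the rest of its epithelium. All genes with a probe of 1 symbol detected at p under 0.01 on at least 2 of the 18 arrays entered, 12002 genes in all.

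Hair cells convert sound into receptor currents through mechanically gated channels at the tips of their stereocilia, and release glutamate from ribbon synapses onto neurons of the spiral ganglion. They arise from epithelial precursors under the transcription factor Atoh1, and the neighbours held back by Notch signalling become supporting cells. At birth the cochlear epithelium also holds the greater epithelial ridge on the inner side, the lesser ridge and outer sulcus on the outer side, and the roof of the duct, which secretes and shapes the endolymph, so that ENHC is a mixture of cell types.

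The arrays detected 16668 to 19564 of 45281 probes, with median raw signals of 89.2 to 121.8, and no array stood apart. Over kept probes, which are not independent of each other, the 3 HC arrays correlated at 0.945 to 0.971, the 3 ENHC arrays at 0.959 to 0.976, and HC with ENHC arrays at 0.803 to 0.839. Values below are log2 intensities after background correction and quantile normalization, and differences are HC minus ENHC on the log2 scale ± standard error (SE). A gene that no array of one cell type detected has no measured ratio, and a lower bound of its fold is given in place ("at least"). In sorted pools, fewer cells of a type and less RNA per cell cannot be told apart.

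The HC label held against hair cell markers. All 12 hair cell markers were higher in HC, and 9 of them were detected on no ENHC array. Atoh1 measured 9.79, 9.36 and 9.66 in HC, against 4.46, 4.35 and 4.37 in ENHC. Every HC array stood far above every ENHC array, and the gene was at least 17.4-fold higher (log2 difference 5.21 ± 0.19, adjusted p = 2.91e-13), although Atoh1 sequences also drive the GFP used for sorting. Of the 3 hair cell markers that ENHC arrays did detect, Pvalb (parvalbumin) and Calb2 (calretinin) passed on 1 of 3 ENHC arrays each, and the unconventional myosin Myo6 on all 3, at 13.00 ± 0.36 in HC and 10.59 ± 0.14 in ENHC (SD, n = 3 each). Epcam, the other sorting criterion, was detected on all 6 arrays and was 2.02-fold lower in HC (log2 difference -1.02 ± 0.23, adjusted p = 0.00189). Median scaling in place of quantile normalization ended that call (adjusted p = 0.0670).

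**Figure D1:**
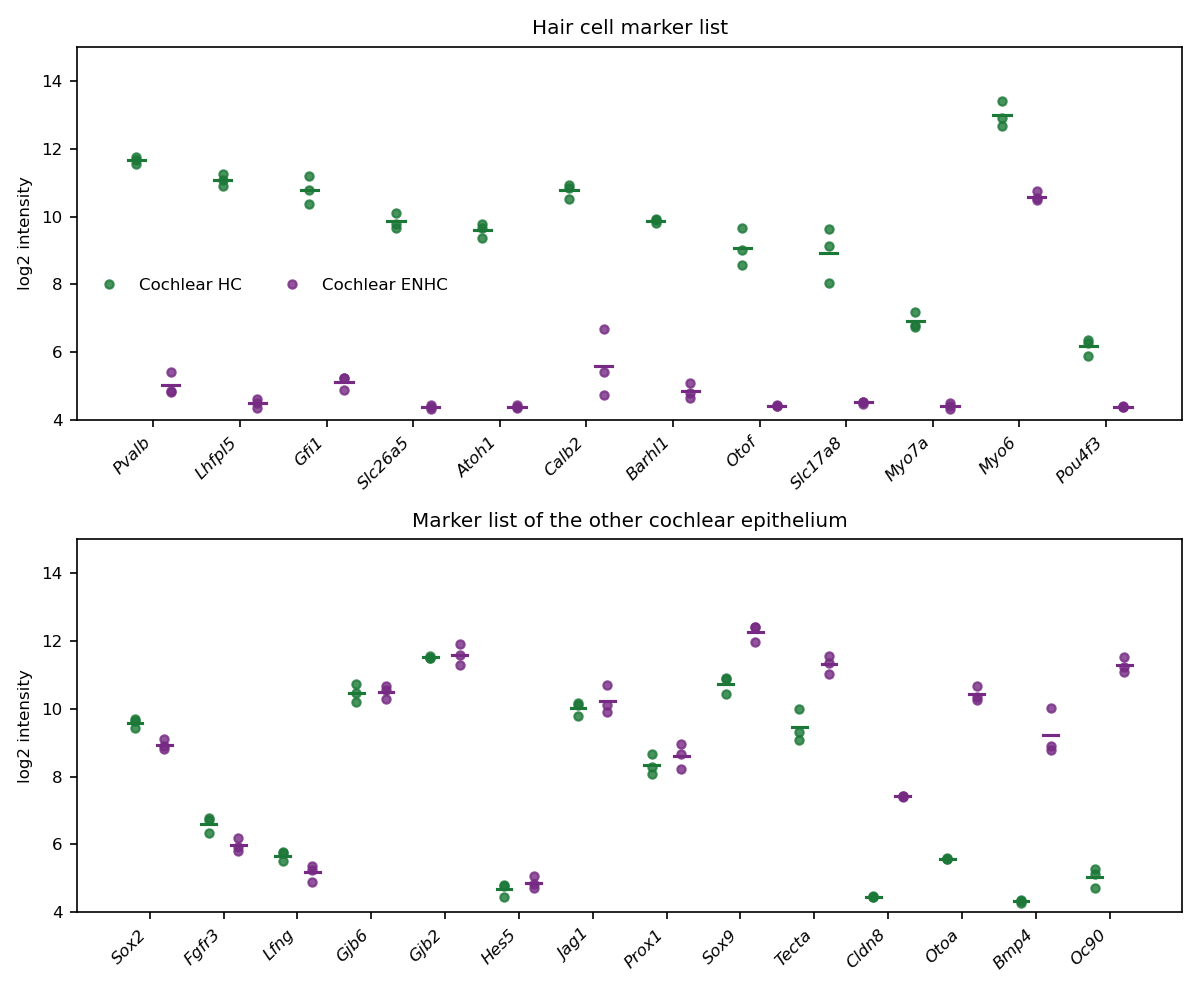
Log2 intensity on each of the 3 Cochlear HC and 3 Cochlear ENHC arrays (points) with group means (bars), for 12 hair cell markers and for 14 markers of the other cochlear epithelium. HC arrays lie above ENHC arrays for all 12 hair cell markers, while 6 of the 14 other markers were lower in HC, 2 were higher and 6 were not called.

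Markers of the other cochlear epithelium did not split as cleanly. Of 14, 6 were lower in HC, namely Oc90, Bmp4, Otoa, Cldn8, Tecta and Sox9. The gap junction genes Gjb2 and Gjb6 were detected on all 6 arrays at similar levels: Gjb2 measured 11.55, 11.50 and 11.50 in HC, against 11.91, 11.29 and 11.59 in ENHC, and the groups overlapped (log2 difference -0.08 ± 0.28, adjusted p = 0.873). Gjb6 differed by -0.04 ± 0.26 (adjusted p = 0.935), the homeobox gene Prox1 by -0.28 ± 0.29 (adjusted p = 0.504) and the Notch ligand Jag1 by -0.22 ± 0.29 (adjusted p = 0.616). Hes5, a Notch effector of supporting cells, was detected on no HC or ENHC array, so these arrays hold no usable value for it.

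Markers of some other tissues differed between the groups, while those of others were mostly undetected or not called. Of 10 endothelial markers 9 were detected on no array of either group, and the other, Egfl7, detected on all 3 HC arrays and 2 of ENHC, differed by 1.12 ± 0.32 (adjusted p = 0.00975), which did not pass without HC replicate 1 or ENHC replicate 2 (adjusted p = 0.0620 and 0.0616). Of 5 macrophage and leukocyte markers C1qb alone was detected, on the HC arrays. Of 4 erythroid markers none was called, and of 4 melanocyte markers 1 was called higher in HC. The summed level of 11 mesenchymal markers was 10.1 to 10.3 on HC and 11.6 to 11.7 on ENHC arrays, against 13.5 for the cochlear NEC means. Of these, Col1a2, Col3a1, Postn, Dcn and Lum were lower in HC and Pdgfra was higher, while Col1a1, Col6a1, Pou3f4, Tbx18 and Twist1 were detected on no HC or ENHC array and on all 3 NEC arrays. The summed level of 6 cartilage and bone markers was 11.5 to 11.9 on HC and 13.8 to 14.0 on ENHC arrays, against 13.3 for the cochlear NEC means. Of these 6, 3 were detected on all NEC arrays, and Sox9 is also among the markers of the other cochlear epithelium. The part these cells play in genes that were lower in HC was not tested.

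Of 12002 genes, 4380 (36.5%) differed between HC and ENHC, 2037 of them higher (17.0%) and 2343 lower (19.5%) in HC. With the bound in place of the fitted value for genes undetected on all arrays of a group, differences reached 4-fold for 359 higher and 401 lower genes and 16-fold for 65 and 40. On all 3 HC arrays and no ENHC array 563 genes were detected, of which 518 were called higher. The reverse held for 334 genes, of which 332 were called lower. Of the genes higher in HC, 598 were detected on no cochlear NEC array, and for 1001 the NEC mean lay below both epithelial means. Of the genes lower in HC, the NEC mean lay above both for 937. For 18 genes, different probes were called in different directions, and none of the genes given with values here was among them.

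**Figure D2:**
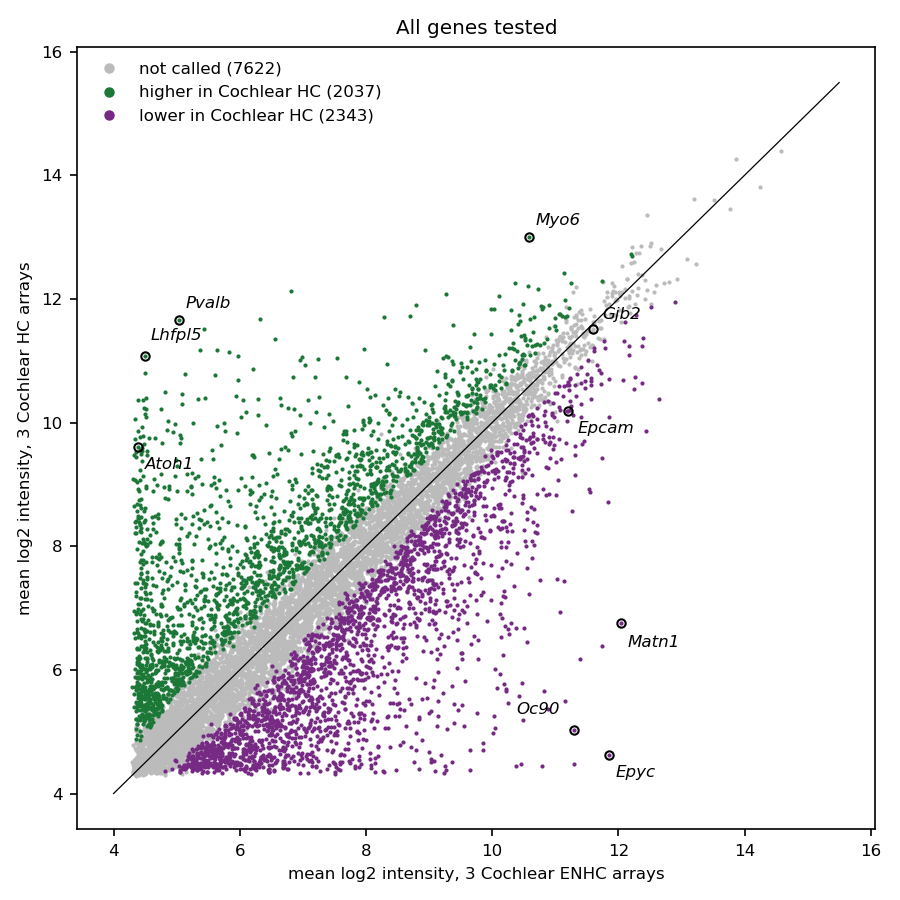
Mean log2 intensity of the 12002 genes on the 3 Cochlear HC arrays (vertical axis) against the 3 Cochlear ENHC arrays (horizontal axis), with 2037 genes called higher in HC, 2343 called lower and 7622 not called. Points crowd along the left edge and the bottom edge, where the ENHC mean or the HC mean is near the lowest signal.

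Among genes that all 6 arrays detected, the largest increase was in Espnl, an espin-like actin-bundling protein of stereocilia. Espnl measured 11.25, 11.91 and 11.84 in HC, against 6.90, 5.96 and 6.08 in ENHC. Every HC array exceeded every ENHC array by more than 4 log2 units, a 40.9-fold increase (log2 difference 5.35 ± 0.34, adjusted p = 5.48e-10). The long noncoding RNA Miat followed (39.9-fold, log2 difference 5.32 ± 0.53), then Tmem178b (34.4-fold, 5.11 ± 0.26), Pcp4l1 (27.8-fold, 4.80 ± 0.34) and Chrng, a subunit of the muscle acetylcholine receptor (26.2-fold, 4.71 ± 0.21). The other 5 of the first 10 were the dynein light chain Dynlrb2, Sult4a1, Mycbpap, Depdc7 and Mthfd2, a mitochondrial folate enzyme, from 25.4-fold to 16.9-fold higher.

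Of genes on all HC arrays and no ENHC array, Lhfpl5 had the largest bound. This tetraspan protein of the mechanotransduction channel measured 11.25, 10.91 and 11.09 in HC, against 4.61, 4.36 and 4.51 in ENHC. The HC arrays lay together far above the ENHC arrays, a difference of at least 48.5-fold (adjusted p = 5.15e-15). The small GTPase gene Rasd2 was at least 39.9-fold higher, the zinc finger repressor Gfi1 at least 39.6-fold, Thsd7b at least 31.5-fold and the neural zinc finger factor Myt1 at least 30.1-fold. The neuropeptide gene Grp (gastrin-releasing peptide) was at least 29.6-fold higher, Kcnmb2, an auxiliary subunit of BK potassium channels, at least 29.5-fold, Pjvk (pejvakin) at least 28.1-fold, the sodium channel Scn11a at least 27.1-fold and the cilium gene Cfap206 at least 26.8-fold. Of these 10 genes, Myt1 and Kcnmb2 were also detected on all 3 cochlear NEC arrays and Thsd7b on 2, and the other 7 on none.

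Transcription factors of hair cells were higher in HC for 12 of 18 measured (66.7%) and lower for 2 (11.1%), against 17.0% and 19.5% of all genes. The median log2 difference was 2.42 (1.97 with bounds), against −0.03 over all genes. The homeobox factor Barhl1 measured 9.89, 9.81 and 9.94 in HC, against 5.08, 4.81 and 4.66 in ENHC. It was at least 21.1-fold higher (adjusted p = 2.95e-12), with the groups far apart. Nhlh1, a neurogenic basic helix-loop-helix factor, was at least 19.0-fold higher, the LIM-homeobox factor Lhx3 at least 8.24-fold, and Hes6, a Hes family member detected on all 6 arrays, 8.33-fold (log2 difference 3.06 ± 0.34, adjusted p = 9.38e-07). Pou4f3, which keeps hair cells alive, passed detection on each HC array and on no ENHC array but lay close to the limit, at 6.18 ± 0.25 in HC and 4.40 ± 0.02 in ENHC (SD, n = 3 each), and was at least 1.62-fold higher (log2 difference 1.78 ± 0.22, adjusted p = 3.41e-06). Foxj1, the regulator of motile ciliogenesis, was 2.57-fold higher (log2 difference 1.36 ± 0.21, adjusted p = 4.68e-05), with 1 of 3 ENHC arrays detecting it. Eya4, a transcriptional coactivator, was 1.57-fold higher (log2 difference 0.65 ± 0.19, adjusted p = 0.0126), a call that did not pass with the mean of its probes (adjusted p = 0.569) or without HC replicate 2 or ENHC replicate 1 or 3 (adjusted p = 0.0650, 0.0507 and 0.0540).

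Not every factor linked with hair cells was higher. Isl1 measured 10.27, 9.71 and 9.97 in HC, against 10.53, 9.94 and 10.39 in ENHC, and the groups overlapped (adjusted p = 0.456). Eya1 differed by 0.18 ± 0.19 (adjusted p = 0.525), Jazf1 by 0.08 ± 0.29 (adjusted p = 0.870) and Pou4f1 by 0.44 ± 0.28 (adjusted p = 0.248). The 2 lower factors rested on small differences: Ikzf2 (helios), detected on 2 of 3 ENHC arrays and no HC array, fell by a fitted log2 of 0.89 (adjusted p = 0.0158), which did not pass without ENHC replicate 1 (adjusted p = 0.0635) or 2 (adjusted p = 0.0705). Six2 fell by 0.94 (adjusted p = 0.0121), which did not pass without HC replicate 3 (adjusted p = 0.0546) or ENHC replicate 2 (adjusted p = 0.0658).

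Genes known from inner or outer hair cells were mostly higher. Of 15 measured, 11 were higher in HC (73.3%, against 17.0% of all genes) and Ikzf2 alone was lower. Slc26a5 (prestin), the motor protein of outer hair cells, measured 9.79, 10.10 and 9.68 in HC, against 4.43, 4.38 and 4.33 in ENHC. Every HC array and no ENHC array detected it, a difference of at least 20.7-fold (adjusted p = 4.24e-14). Slc17a8, the vesicular glutamate transporter of inner hair cells, was at least 10.95-fold higher, at 8.94 ± 0.81 in HC and 4.52 ± 0.04 in ENHC (SD, n = 3 each). The zinc finger factors Insm1 and Bcl11b, both known from outer hair cells, were at least 6.00-fold and at least 6.19-fold higher, and Strip2 at least 15.1-fold. Fgf8 and Tbx2, which mark inner hair cells, were not called. Fgf8 was detected on 1 HC array alone and Tbx2 on none, and Fgf8 passed in the fit of the 6 cochlear arrays with the replicate number as a block (adjusted p = 0.0460) and when vestibular HC replicate 2 was left out (adjusted p = 0.0298).

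Many members of the mechanotransduction complex had low signals. Of 11 genes measured, 8 were higher (72.7%, against 17.0% of all genes) and none lower. However, 8 of the 11 were detected on no ENHC array, and the median log2 difference was 1.33 as fitted and 0.21 with bounds. Beside Lhfpl5, the strongest were Clrn1 (clarin 1), at least 8.01-fold higher (adjusted p = 7.41e-11), Tmie, a transmembrane subunit detected on all 6 arrays and 6.12-fold higher (log2 difference 2.61 ± 0.22, adjusted p = 1.73e-08), and Tomt, which is required to traffic the channel (4.10-fold, log2 difference 2.04 ± 0.29, adjusted p = 1.51e-05). For the motor gene Myo7a the bound was 2.69-fold (adjusted p = 2.77e-09).

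The pore-forming subunits were near the limit of detection. Tmc1 measured 6.20, 4.86 and 5.57 in HC, against 4.50, 4.50 and 4.47 in ENHC, and HC arrays 1 and 3 detected it. Its fitted difference of 1.05 ± 0.40 passed narrowly (adjusted p = 0.0456), with a bound of at least 1.04-fold, and 18 of 30 alternatives ended the call, among them the replicate block (adjusted p = 0.0514) and leaving out HC replicate 1 (adjusted p = 0.209). Without HC replicate 3 its adjusted p was 0.0991, and without ENHC replicate 1, 2 or 3 it was 0.0910, 0.0881 or 0.0974. Leaving out single NEC or vestibular arrays ended it in 7 of 12 cases, at adjusted p of 0.0503 to 0.0559. Tmc2 was detected on HC arrays 2 and 3 (fitted difference 0.73 ± 0.21, adjusted p = 0.00920), and its call did not pass without either of them (adjusted p = 0.0569 and 0.0560). The scaffold gene Ush1g (sans) was likewise on 2 of 3 HC arrays and no ENHC array (log2 difference 1.33 ± 0.24, adjusted p = 1.84e-04).

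Other members behaved differently from these. Ush1c, which encodes the scaffold harmonin, measured 9.48, 9.55 and 9.49 in HC, against 9.43, 9.32 and 9.68 in ENHC, and the groups overlapped (log2 difference 0.03 ± 0.19, adjusted p = 0.929). The tip link cadherin Cdh23 was detected on 2 HC arrays and no ENHC array, and its difference of 0.64 ± 0.28 was not called (adjusted p = 0.0888). Without HC replicate 1 it was called (log2 difference 1.02, adjusted p = 0.00379). Cdh23 was also called higher with the mean of probes, with array weights and with the filter of detection on all 3 arrays of a group. Of its 2 probes, 1 was called higher in the fit to all kept probes. Cib3, which binds calcium and the channel's pore subunits, was detected on 1 HC array in the cochlea (difference 0.57 ± 0.27, adjusted p = 0.107), whereas the vestibular difference was 6.39 ± 0.27 (adjusted p = 2.19e-12). Leaving out HC replicate 3 alone among the cochlear arrays brought Cib3 past the threshold (adjusted p = 0.0485), as did leaving out vestibular ENHC replicate 2 (adjusted p = 0.05, just under it).

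Of 37 genes of the stereocilia core and its motors, 25 were higher and 4 lower in HC (67.6% and 10.8%, against 17.0% and 19.5% of all genes), with a median of 2.23 (1.92 with bounds). Xirp2, which binds actin in the stereocilia, stood at least 19.4-fold higher and Ptprq, a phosphatase at their base, at least 16.6-fold. The actin bundler Pls3 (plastin 3) ran the other way, at 7.19, 7.05 and 7.28 in HC, against 10.16, 10.05 and 10.38 in ENHC. No HC array reached an ENHC array, and Pls3 was 8.14-fold lower in HC (log2 difference -3.02 ± 0.18, adjusted p = 2.02e-10). The motor Myo1c, on all 3 ENHC and no HC arrays, was at least 1.74-fold lower, and Clic5 and Fscn1 were the other lower members. Neither call held when single arrays were left out. Clic5 (log2 difference -0.75 ± 0.24, adjusted p = 0.0200) did not pass without HC replicate 2 (adjusted p = 0.128) or ENHC replicate 2 (adjusted p = 0.0894). Fscn1 (log2 difference -1.08 ± 0.37, adjusted p = 0.0282) did not pass without HC replicate 1, 2 or 3 or ENHC replicate 2 or 3 (adjusted p = 0.0632, 0.0711, 0.0540, 0.0893 and 0.0634).

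Genes of the ribbon synapse and vesicle fusion were higher for 20 of 31 members and lower for 2 (64.5% and 6.45%, against 17.0% and 19.5% of all genes). Their median was 1.64 (1.13 with bounds). Otof (otoferlin), the calcium sensor of hair cell exocytosis, measured 8.56, 9.0 and 9.66 in HC, against 4.40, 4.43 and 4.42 in ENHC. It was at least 12.1-fold higher (adjusted p = 3.21e-11), and no array of the 2 groups overlapped. Syp (synaptophysin) was at least 22.8-fold higher (adjusted p = 5.48e-10). Both lower members have a paralogue that was higher: the priming factor Unc13b was 3.94-fold lower (log2 difference -1.98 ± 0.36, adjusted p = 2.24e-04) while Unc13a was higher, and the vesicle protein Sv2b was 3.21-fold lower (log2 difference -1.68 ± 0.47, adjusted p = 0.00835) while Sv2a was higher. The call of Sv2b did not pass without HC replicate 2 (adjusted p = 0.0656).

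Calcium buffers and sensors were higher for 9 of 10 members (90.0%, against 17.0% of all genes). Pvalb measured 11.66, 11.56 and 11.74 in HC, against 5.42, 4.84 and 4.86 in ENHC, a 98.1-fold difference with 1 ENHC array detecting it (log2 difference 6.62 ± 0.26, adjusted p = 7.94e-13). Calb2 measured 10.85, 10.53 and 10.94 in HC, against 6.68, 4.72 and 5.40 in ENHC. Its highest ENHC array, replicate 1, was the only one to detect it, and the HC arrays all lay above (36.0-fold, log2 difference 5.17 ± 0.40, adjusted p = 6.74e-09). Cabp2, a calcium-binding protein of the ribbon synapse, was at least 23.2-fold higher. S100b, the lower member, was detected on no HC or ENHC array.

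Of 18 channels, pumps and efferent receptor genes, 14 were higher (77.8%, against 17.0% of all genes). Trpm3 alone was lower (4.09-fold, log2 difference -2.03 ± 0.23, adjusted p = 9.12e-07). Atp2a3, a calcium pump of the endoplasmic reticulum, measured 11.87, 10.55 and 11.12 in HC, against 6.63, 4.53 and 5.75 in ENHC. Its ENHC arrays spread over 2 log2 units and 2 of 3 detected it, yet the HC arrays all lay higher (46.7-fold, log2 difference 5.55 ± 0.43, adjusted p = 6.68e-09). The acetylcholine receptor subunits Chrna9 and Chrna10, which receive the efferent input, were both higher.

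Neurosecretory and neuronal genes were mixed. Among 12 granin and prohormone processing genes 6 were higher and 3 lower. Chga (chromogranin A) was at least 16.8-fold higher, Scg3 (secretogranin III) at least 13.4-fold, and Chgb, which 2 of 3 ENHC arrays detected, 15.2-fold. Scg2 (secretogranin II) went the other way, on all 3 ENHC and no HC arrays (at least 2.30-fold lower), together with Pam, which amidates peptides (5.05-fold, log2 difference -2.34 ± 0.38, adjusted p = 6.64e-05), and Rab27b (1.97-fold, log2 difference -0.98 ± 0.21, adjusted p = 0.00121). Of 22 neurofilament and neurite genes 11 were higher and 3 lower. Nefm, a neurofilament subunit, measured 10.10, 10.58 and 10.81 in HC, against 5.49, 4.51 and 4.44 in ENHC, with no overlap between the groups (51.4-fold, log2 difference 5.68 ± 0.33, adjusted p = 1.53e-10). Gdap1 was at least 19.3-fold higher. The microtubule genes Dcx (doublecortin) and Stmn2 (stathmin 2), both of growing neurites, were on all 3 ENHC and no HC arrays, at least 2.70-fold and at least 2.60-fold lower. The third lower one, Dclk1 (log2 difference -1.08 ± 0.36, adjusted p = 0.0252), on 2 ENHC arrays alone, lost its call in 9 alternatives, among them those without HC replicate 2 or 3 or ENHC replicate 1 or 2 (adjusted p = 0.0583, 0.0692, 0.0593 and 0.0914). Of 10 markers of spiral ganglion neurons 2 were higher and 1 lower, their summed level was 10.4 to 10.7 on HC and 10.5 to 10.9 on ENHC arrays, and Tubb3, Ntrk3, Neurod1 and Shox2 were detected on no array of either group. Their part in these differences was not tested.

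Of 17 neural regulators 9 were higher in HC (52.9%, against 17.0% of all genes) and 2 lower. Srrm4, which directs neural microexon splicing and is required for hearing in mice, measured 8.19, 8.71 and 8.37 in HC, against 4.63, 4.42 and 4.42 in ENHC. It was detected on HC arrays alone, at least 7.68-fold higher (adjusted p = 1.27e-11). Rbfox3 was at least 6.00-fold and Celf3 at least 5.97-fold higher, while Mbnl2 (muscleblind-like 2) was 6.93-fold lower (log2 difference -2.79 ± 0.25, adjusted p = 5.72e-08). The other lower one, Celf2 (log2 difference -0.49 ± 0.19, adjusted p = 0.0489), lost its call in 16 alternatives. Of 15 epithelial splicing and polarity regulators none was called higher and 8 were lower (53.3%, against 19.5%). Esrp1, which maintains epithelial splicing, measured 8.31, 8.23 and 8.56 in HC, against 10.24, 10.38 and 10.21 in ENHC, lower on every HC array (3.76-fold, log2 difference -1.91 ± 0.20, adjusted p = 4.72e-07). The RNA-binding gene Rbm47 was 11.6-fold lower (log2 difference -3.53 ± 0.33, adjusted p = 8.25e-08) and the epithelial transcription factor Grhl2 5.24-fold (log2 difference -2.39 ± 0.24, adjusted p = 2.4e-07).

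Hair cells of the cochlea carry a single true cilium, the kinocilium, that is lost as they mature. Of 50 genes of the axoneme and of motile cilia, 39 were higher in HC (78.0%, against 17.0% of all genes) and Dnah11 alone was lower. The median log2 difference was 1.55 (1.42 with bounds). Cfap206 measured 10.23, 10.30 and 10.14 in HC, against 5.04, 4.75 and 4.47 in ENHC, and the groups lay far apart. Dynlrb2 measured 10.61, 11.04 and 10.97 in HC, against 6.35, 6.08 and 6.19 in ENHC. All 6 arrays detected this dynein light chain, 25.4-fold higher in HC (log2 difference 4.67 ± 0.21, adjusted p = 3.4e-12), and the radial spoke gene Rsph1 was 16.8-fold higher (log2 difference 4.07 ± 0.33, adjusted p = 1.49e-08). The outer arm dynein Dnah11 was 2.14-fold lower (log2 difference -1.10 ± 0.19, adjusted p = 1.54e-04), but the mean of its probes gave a difference of -0.21 (adjusted p = 0.548).

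Intraflagellar transport builds cilia of all kinds. Of 37 genes of intraflagellar transport and the BBSome 17 were higher (45.9%, against 17.0% of all genes) and 1 lower, with a median of 0.52 (0.46 with bounds). The largest were Dync2h1, the retrograde motor (3.86-fold, log2 difference 1.95 ± 0.20, adjusted p = 3.75e-07), Ift172 (3.67-fold, log2 difference 1.87 ± 0.24, adjusted p = 4.75e-06) and Ift27 (2.66-fold, log2 difference 1.41 ± 0.18, adjusted p = 4.99e-06). Ttc21b, a retrograde transport subunit, was lower, on 3 ENHC and no HC arrays (at least 1.37-fold).

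Promoters of both cilium lists were searched for letters that the study had already reported from these data. It found the binding motif of RFX transcription factors over-represented in promoters of HC-enriched genes, with cilium genes enriched among the putative targets. The shares below are therefore not independent of that result, and those of the lists count all members, called or not. The X-box, the element bound by RFX transcription factors, was searched as GTTGCCNNG on both strands from 250 bases before to 50 after each gene's start (RefSeq, GRCm38.p6). It was present in 14 of 44 axoneme promoters found in the table (31.8%) and in 10 of 32 intraflagellar transport promoters (31.2%), against 5.16% of all 27025 promoters. Promoters of genes higher in HC held it in 9.27%, of genes lower in HC in 4.47% and of genes not called in 5.27%. Of 30 stereocilia promoters 1 held it, and of 9 mechanotransduction promoters none did. The E-boxes CAGCTG and CAGATG, of the class bound by basic helix-loop-helix factors such as Atoh1, were in 17.0% and 13.1% of promoters of genes higher in HC, in 16.3% and 10.8% of those lower, and in 13.8% and 11.6% of those not called. A match is a description of the letters, not of binding. The windows below show the match in capitals for 4 axoneme genes, with up to 20 bases on either side; in 2 of them it is read on the other strand. Fam183b has 2 matches, of which 1 is shown. Fam183b, Cfap161 and Drc1 were detected on no ENHC array, so that their differences are fitted values.
Dynlrb2, chr8:116504944-116504992, plus strand: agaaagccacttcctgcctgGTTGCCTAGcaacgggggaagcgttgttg
Fam183b, chr11:58801999-58802047, minus strand: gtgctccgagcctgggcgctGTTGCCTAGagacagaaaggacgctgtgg
Cfap161, chr7:83794853-83794901, minus strand: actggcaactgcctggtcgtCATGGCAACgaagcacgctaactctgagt
Drc1, chr5:30281359-30281392, plus strand: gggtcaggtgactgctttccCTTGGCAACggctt
The matches began 51, 67, 42 and 14 bases before the start of Dynlrb2, Fam183b, Cfap161 and Drc1, whose fitted log2 differences were 4.67, 4.04, 4.06 and 3.00.

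In the opposite direction, genes of the nonsensory floor and roof of the duct fell in HC. The list of the greater ridge, sulcus and spiral limbus had 12 of 15 members lower (80.0%, against 19.5% of all genes) and none higher, with a median of -3.65 (-2.98 with bounds). Epyc (epiphycan), a small proteoglycan of the greater ridge, measured 4.40, 5.11 and 4.37 in HC, against 11.75, 11.81 and 12.01 in ENHC. Every ENHC array and no HC or cochlear NEC array detected it, and it was at least 96.8-fold lower (adjusted p = 1.99e-08), the largest bound in either direction. Otoa (otoancorin), which attaches the tectorial membrane to the limbus, measured 5.56, 5.60 and 5.56 in HC, against 10.33, 10.68 and 10.25 in ENHC, with the 3 HC arrays together far below (28.9-fold, log2 difference -4.85 ± 0.23, adjusted p = 9.34e-12). Bmp4, which marks the outer sulcus side, was at least 15.8-fold lower, and the guidance ligand Sema3c, on 1 HC array, 18.8-fold (log2 difference -4.23 ± 0.29, adjusted p = 1.21e-09).

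**Figure D3:**
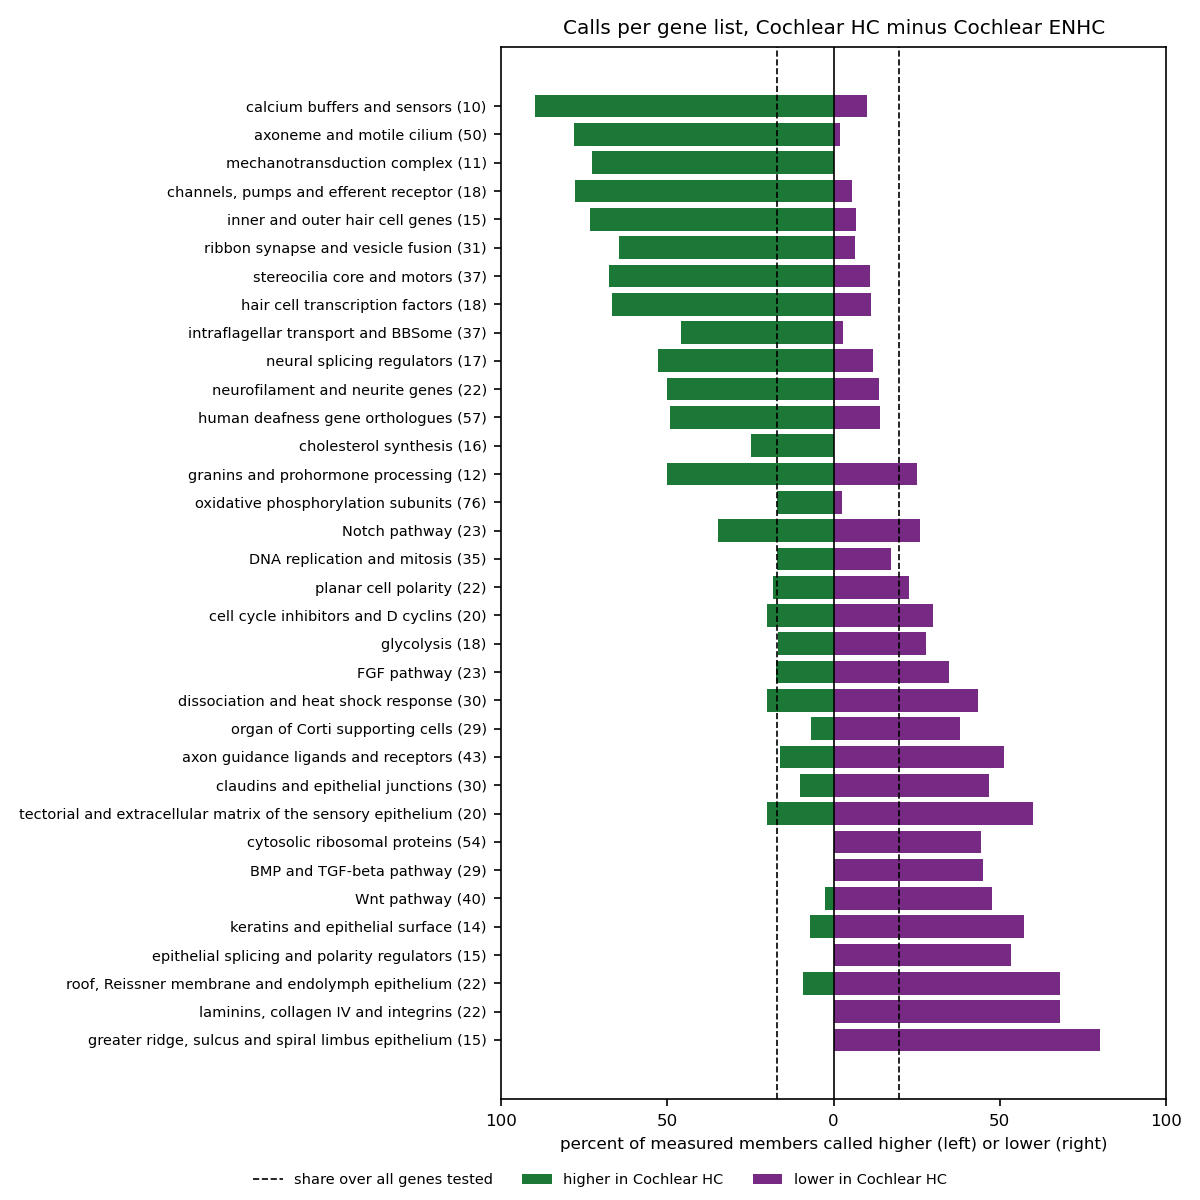
Percent of the measured members of each gene list (number in brackets) called higher (left) or lower (right) in Cochlear HC than in Cochlear ENHC, with dashed lines at the shares over all genes tested, 17.0% and 19.5%. Calcium buffers (9 of 10) and axoneme genes (39 of 50) lie at the top, and the greater ridge, sulcus and limbus list (12 of 15 lower) at the bottom.

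Of 22 genes of the roof, Reissner's membrane and the endolymph epithelium 15 were lower and 2 higher (68.2% and 9.09%, against 19.5% and 17.0% of all genes). Oc90 (otoconin 90) measured 5.29, 4.71 and 5.11 in HC, against 11.09, 11.24 and 11.54 in ENHC. HC replicate 1 alone among the HC arrays detected it, and it was 76.4-fold lower (log2 difference -6.25 ± 0.38, adjusted p = 2.55e-10). Vmo1 was at least 36.6-fold and Ttr (transthyretin) at least 34.8-fold lower, both on all ENHC arrays and on no HC or cochlear NEC array. The LIM-homeobox factor Lmx1a was 18.4-fold lower (log2 difference -4.20 ± 0.50, adjusted p = 1.97e-06). Esrrg, a nuclear receptor, and Atp1b2, a sodium pump subunit, were higher in HC (log2 difference 1.19 ± 0.30, adjusted p = 0.00404 for Esrrg and log2 difference 1.01 ± 0.21, adjusted p = 7.25e-04 for Atp1b2).

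Matrix genes were mostly lower. Of 20 genes of the tectorial and extracellular matrix 12 were lower and 4 higher. Tecta (alpha-tectorin) was detected on all 6 arrays, at 9.47 ± 0.47 in HC and 11.32 ± 0.27 in ENHC (SD, n = 3 each). It was lower on every HC array (3.59-fold, log2 difference -1.84 ± 0.25, adjusted p = 9.09e-06). The fibrillar collagen gene Col11a1 was 12.9-fold lower (log2 difference -3.69 ± 0.33, adjusted p = 4.65e-08) and Hspg2 (perlecan), on 2 HC arrays, 13.4-fold (log2 difference -3.75 ± 0.39, adjusted p = 3.83e-07). The exceptions were Tnc (tenascin C), at 11.65, 11.71 and 11.80 in HC, against 8.75, 8.48 and 8.86 in ENHC with every HC array higher (8.13-fold, log2 difference 3.02 ± 0.29, adjusted p = 1.28e-07), the proteoglycans Ncan (neurocan, at least 3.88-fold) and Vcan (versican, at least 3.05-fold), and Zpld1. Of 22 laminins, collagen IV chains and integrins 15 were lower (68.2%) and none was higher. Lamb1, a laminin chain of basement membranes, was 46.0-fold lower (log2 difference -5.52 ± 0.27, adjusted p = 1.02e-11), Col4a5 12.1-fold (log2 difference -3.60 ± 0.37, adjusted p = 2.6e-07) and Col4a1 10.7-fold (log2 difference -3.41 ± 0.25, adjusted p = 2.96e-09), and of the 3 HC arrays 2 detected Lamb1 and Col4a5.

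Of other genes lower in HC and detected on all 6 arrays, the secreted peptide gene Ecrg4 was 40.8-fold lower (log2 difference -5.35 ± 0.28, adjusted p = 3.62e-11) and the cartilage matrix gene Matn1 38.8-fold (log2 difference -5.28 ± 0.61, adjusted p = 1.45e-06). Matn1 measured 7.81, 6.34 and 6.15 in HC, against 12.13, 11.97 and 12.02 in ENHC. HC replicate 1 lay above the other HC arrays, and none of the 3 approached ENHC. It is one of the cartilage markers given above, and their part in this difference was not tested. Arhgap29, Igf1 (insulin-like growth factor 1), Sulf1, a heparan sulphate sulphatase, Adamts9, a matrix protease, Ces1d and Rbms3 were 20.7-fold to 15.2-fold lower. Of genes on ENHC arrays alone, the glypican Gpc3 was at least 65.9-fold lower, the tight junction gene Cldn11 at least 46.4-fold, Rnase1 at least 24.1-fold, Ogn at least 20.9-fold and Postn (periostin) at least 16.1-fold. Gpc3, Cldn11, Ogn and Postn were also detected on all 3 cochlear NEC arrays.

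Genes of the organ of Corti supporting cells were lower in part. Of 29 measured, 11 were lower (37.9%, against 19.5% of all genes), 2 higher (6.90%, against 17.0%) and 16 not called. The crest and glial factor Sox10 was 7.22-fold lower (log2 difference -2.85 ± 0.36, adjusted p = 3.87e-06), the gap junction gene Gja1 7.18-fold (log2 difference -2.84 ± 0.42, adjusted p = 2.65e-05), the neurotrophin receptor Ngfr (p75) 6.15-fold (log2 difference -2.62 ± 0.37, adjusted p = 1.31e-05) and Sox9 2.88-fold (log2 difference -1.53 ± 0.24, adjusted p = 5.16e-05). Of 7 Schwann cell and glial markers 3 were lower and 1 higher, with a summed level of 10.59 to 10.77 on HC and 10.78 to 11.04 on ENHC arrays and no Mbp or Pmp22 detected in either, and their part in the result was not tested. Sox2, the prosensory factor of supporting cells, measured 9.71, 9.43 and 9.63 in HC, against 8.81, 9.10 and 8.91 in ENHC. All 3 HC arrays lay above all 3 ENHC arrays, 1.57-fold higher (adjusted p = 0.0417). That call did not pass with median scaling (adjusted p = 0.0781) or without HC replicate 1 or 3, ENHC replicate 1 or 3, or NEC replicate 3 (adjusted p = 0.111, 0.0992, 0.122, 0.0977 and 0.0507). Fgfr3, a receptor of pillar and Deiters' cells, was 1.56-fold higher (adjusted p = 0.0235), which did not pass without HC replicate 2 or 3 or ENHC replicate 1 or 3 (adjusted p = 0.0848, 0.0783, 0.0905 and 0.0669).

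Of 23 Notch pathway genes 8 were higher in HC, Hes6 among them, 6 were lower and 9 were not called. The shares higher and lower were 34.8% and 26.1%, against 17.0% and 19.5% of all genes. The ligand genes Dll1, Dll3, Dll4 and Jag2 were higher, although Dll4 did not pass without HC replicate 3 (adjusted p = 0.0898), and the ligand gene Jag1 was not called. Dll3 measured 9.36, 9.44 and 9.53 in HC, against 4.39, 4.38 and 4.29 in ENHC, and it was at least 15.6-fold higher (adjusted p = 4.24e-14). Mfng (manic fringe), which modifies Notch receptors, was 32.9-fold higher, with 1 ENHC array detecting it (log2 difference 5.04 ± 0.25, adjusted p = 1.77e-11), while Lfng (lunatic fringe) passed detection on each HC array and on no ENHC array but was not called (log2 difference 0.49 ± 0.28, adjusted p = 0.188). The receptor gene Notch1 measured 7.05, 6.64 and 7.06 in HC, against 9.04, 9.07 and 9.19 in ENHC, lower on every HC array (4.54-fold, log2 difference -2.18 ± 0.26, adjusted p = 1.72e-06). Its targets Nrarp (2.77-fold, log2 difference -1.47 ± 0.21, adjusted p = 1.71e-05) and Hey1 (2.03-fold, log2 difference -1.02 ± 0.26, adjusted p = 0.00361) were lower too, and the receptor Notch3 was also lower. Array weights brought Lfng past the threshold (adjusted p = 0.00575), as did leaving out vestibular HC replicate 1 (adjusted p = 0.0495).

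Growth factor pathways were lower more often than higher, which also held to a lesser degree for all genes (19.5% and 17.0%). In the FGF pathway 4 of 23 genes were higher (17.4%, as over all genes) and 8 lower (34.8%). The FGF median was -0.06, against -0.03 over all genes. The receptor gene Fgfr2 measured 4.78, 4.91 and 4.42 in HC, against 9.31, 9.87 and 9.79 in ENHC, undetected on HC arrays and at least 21.1-fold lower (adjusted p = 2.85e-09). The feedback inhibitors Il17rd (5.91-fold, log2 difference -2.56 ± 0.21, adjusted p = 1.11e-08) and Spred1 (2.44-fold, log2 difference -1.29 ± 0.25, adjusted p = 3.61e-04) were lower, and the factor Etv1 was higher (3.85-fold, log2 difference 1.95 ± 0.24, adjusted p = 3.59e-06), as were the ligands Fgf1 (at least 1.47-fold) and Fgf20. In the Wnt pathway 19 of 40 genes were lower (47.5%) and the target factor Sp5 alone was higher (3.93-fold, log2 difference 1.97 ± 0.52, adjusted p = 0.00521), although 3 were higher with the replicate block, 3 without HC replicate 1, 2 without vestibular HC replicate 3 and 5 with array weights. The Wnt agonist Rspo2 was at least 15.9-fold lower, the antagonist Frzb 10.2-fold (log2 difference -3.36 ± 0.25, adjusted p = 4.25e-09) and the ligand Wnt5a 9.84-fold (log2 difference -3.30 ± 0.21, adjusted p = 5.98e-10). In the BMP and TGF-beta pathway 13 of 29 genes were lower (44.8%) and none higher (1 without HC replicate 1 or 2 or vestibular HC replicate 1, and 3 with array weights), among them the ligands Bmp4 and Bmp6 (5.79-fold, log2 difference -2.53 ± 0.33, adjusted p = 5.71e-06), the antagonist Fst (follistatin, 5.32-fold, log2 difference -2.41 ± 0.33, adjusted p = 1.18e-05) and the target gene Id3 (1.69-fold, log2 difference -0.76 ± 0.21, adjusted p = 0.00653). Among the HC arrays, replicate 3 alone detected Bmp6 and replicate 2 alone detected Fst.

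Planar cell polarity genes showed no common direction. Of 22, 4 were higher and 5 lower (18.2% and 22.7%), near the 17.0% and 19.5% of all genes. The spindle orientation genes Insc (at least 16.6-fold) and Gpsm2 (3.36-fold, log2 difference 1.75 ± 0.31, adjusted p = 1.70e-04), which shape the hair bundle, and the cadherin Celsr3 (at least 5.75-fold) were higher, and the protocadherin Fat4 (at least 5.04-fold) and Prickle1 (2.10-fold, log2 difference -1.07 ± 0.29, adjusted p = 0.00626) were lower. Of 43 axon guidance genes 22 were lower (51.2%) and 7 higher (16.3%). Slit3 measured 4.73, 4.37 and 4.41 in HC, against 9.43, 9.29 and 9.39 in ENHC, on ENHC arrays alone and at least 17.3-fold lower (adjusted p = 3.96e-12), and Slit2 was at least 13.7-fold lower. The neurotrophin Bdnf, which sustains afferent neurons, was at least 7.92-fold higher in HC (adjusted p = 1.56e-11), Efna5 5.88-fold (log2 difference 2.56 ± 0.30, adjusted p = 1.41e-06) and Sema7a at least 4.82-fold.

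Junction and surface genes of epithelia were lower in large part. Of 30 claudins and junction genes 14 were lower and 3 higher. Beside Cldn11, Cldn8 was at least 4.48-fold lower and the plakophilin Pkp3 4.18-fold (log2 difference -2.06 ± 0.25, adjusted p = 2.6e-06). The 3 higher genes were the cell adhesion genes Cdh2 (N-cadherin, 2.02-fold, log2 difference 1.01 ± 0.22, adjusted p = 0.00139) and Nectin1 (at least 2.84-fold) and the scaffold Tjp3 (2.33-fold, log2 difference 1.22 ± 0.33, adjusted p = 0.00637). Of 14 keratins and surface genes 8 were lower (57.1%). Krt18 measured 8.04, 8.13 and 8.48 in HC, against 10.78, 10.54 and 10.79 in ENHC, lower on every HC array (5.61-fold, log2 difference -2.49 ± 0.33, adjusted p = 5.95e-06), with its partner Krt8 5.48-fold lower (log2 difference -2.45 ± 0.29, adjusted p = 1.91e-06) and Krt19 at least 4.74-fold. The clathrin adaptor subunit Ap1m2 was the one higher member (1.81-fold, log2 difference 0.85 ± 0.19, adjusted p = 0.00134).

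Replication and mitosis genes were at the background. Of 35 replication and mitosis genes 6 were higher and 6 lower (17.1% each, against 17.0% and 19.5%; 10 lower with array weights), with a median of -0.01. The replicative helicase subunits did not move together: Mcm6 was 2.81-fold higher (log2 difference 1.49 ± 0.28, adjusted p = 3.59e-04) while Mcm4 was 2.88-fold lower (log2 difference -1.53 ± 0.23, adjusted p = 3.2e-05) and Mcm5 2.26-fold (log2 difference -1.18 ± 0.32, adjusted p = 0.00722). Mcm2 (log2 difference 0.99 ± 0.36, adjusted p = 0.0392) was called higher but not without HC replicate 1 or ENHC replicate 2 or 3 (adjusted p = 0.180, 0.0957 and 0.153). The mitotic kinase Plk1 was 2.70-fold higher (log2 difference 1.43 ± 0.38, adjusted p = 0.00596) and Rrm1, a ribonucleotide reductase subunit, 2.64-fold lower (log2 difference -1.40 ± 0.20, adjusted p = 1.4e-05). Among 20 inhibitors and D cyclins 4 were higher and 6 lower, against 17.0% and 19.5% of all genes. Cdkn2d (p19Ink4d), which keeps hair cells out of the cycle in mice, measured 11.19, 11.38 and 11.01 in HC, against 7.83, 8.0 and 8.09 in ENHC. Every HC array lay more than 2 log2 units above every ENHC array (9.30-fold, log2 difference 3.22 ± 0.19, adjusted p = 1.39e-10). Rb1 was 2.55-fold (log2 difference 1.35 ± 0.21, adjusted p = 3.91e-05) and Gadd45a 2.34-fold higher (log2 difference 1.23 ± 0.24, adjusted p = 4.60e-04), whereas Cdkn1c (p57Kip2) was 2.16-fold lower (log2 difference -1.11 ± 0.18, adjusted p = 5.41e-05), Cdk2 3.44-fold (log2 difference -1.78 ± 0.38, adjusted p = 9.46e-04) and the D cyclins Ccnd1, Ccnd2 and Ccnd3 were all lower, Ccnd1 by 2.23-fold (log2 difference -1.16 ± 0.23, adjusted p = 5.17e-04).

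Of 54 cytosolic ribosomal protein genes 24 were lower and none higher (44.4%, against 19.5% of all genes), with a median of -0.47. Rplp0 measured 7.58, 6.55 and 6.29 in HC, against 9.73, 8.42 and 8.98 in ENHC, with the groups apart (4.71-fold, log2 difference -2.24 ± 0.43, adjusted p = 4.12e-04), and Rpl22 was 2.07-fold (log2 difference -1.05 ± 0.16, adjusted p = 4.64e-05) and Rps15a 2.23-fold lower (log2 difference -1.16 ± 0.30, adjusted p = 0.00533). The count depended on the scaling, with 10 lower and none higher under median scaling. Of 76 subunits of oxidative phosphorylation 13 were higher (17.1%, as over all genes) and 2 lower, and 21 were higher without background correction or in the deposited value table and 31 with array weights. Cycs (cytochrome c) was 2.17-fold higher (log2 difference 1.12 ± 0.23, adjusted p = 6.62e-04). The 2 lower ones were Cox7a1 (2.34-fold, log2 difference -1.23 ± 0.27, adjusted p = 0.00145) and Cox6b2 (log2 difference -0.82 ± 0.26, adjusted p = 0.0171), which did not pass without HC replicate 2 or ENHC replicate 1 (adjusted p = 0.0756 and 0.0772). The cytochrome oxidase subunit Cox6a1 was 2.64-fold higher (log2 difference 1.40 ± 0.21, adjusted p = 2.56e-05) and the complex I subunit Ndufa8 2.31-fold (log2 difference 1.21 ± 0.16, adjusted p = 9.97e-06). Of 18 glycolysis genes 3 were higher and 5 lower (16.7% and 27.8%, against 17.0% and 19.5% of all genes). Of the enolases and aldolases, Eno2 was 6.08-fold higher (log2 difference 2.60 ± 0.27, adjusted p = 2.96e-07) and Aldoa 1.69-fold (log2 difference 0.75 ± 0.17, adjusted p = 0.00139), while Aldoc was 4.31-fold lower (log2 difference -2.11 ± 0.30, adjusted p = 1.92e-05). Pfkp, a phosphofructokinase, was at least 3.18-fold higher and Pgk1 (phosphoglycerate kinase) 2.56-fold lower (log2 difference -1.36 ± 0.18, adjusted p = 8.06e-06). The glucose transporter gene Slc2a1 was 2.13-fold lower (log2 difference -1.09 ± 0.26, adjusted p = 0.00224). Of 16 cholesterol synthesis genes 4 were higher and none lower, and 2 were higher without HC replicate 1, 2 or 3 or ENHC replicate 2. Hsd17b7 was 2.06-fold higher (log2 difference 1.04 ± 0.20, adjusted p = 3.90e-04). Fdps (log2 difference 0.94 ± 0.34, adjusted p = 0.0373) did not pass without any single HC array or ENHC replicate 1 or 2 (adjusted p = 0.0589, 0.122, 0.0590, 0.0873 and 0.140). Pmvk (log2 difference 0.74 ± 0.24, adjusted p = 0.0201) did not pass without HC replicate 3 or ENHC replicate 1 or 2 (adjusted p = 0.105, 0.0618 and 0.0883).

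Genes that respond to tissue dissociation moved with the comparison. Of 30 dissociation and heat shock genes 13 were lower in HC (43.3%) and 6 higher. The immediate early genes Jun (log2 difference -1.24 ± 0.19, adjusted p = 2.95e-05), Atf3 (log2 difference -1.37 ± 0.32, adjusted p = 0.00228) and Nr4a1 (log2 difference -1.71 ± 0.30, adjusted p = 1.41e-04) were lower. Fos (log2 difference -1.26 ± 0.39, adjusted p = 0.0150) did not pass without HC replicate 3 or ENHC replicate 2 (adjusted p = 0.110 and 0.0895), and Fosb (log2 difference -1.13 ± 0.40, adjusted p = 0.0313) did not pass without HC replicate 1 or ENHC replicate 2 or 3 (adjusted p = 0.190, 0.160 and 0.0810). Also lower were Ier3, 4.89-fold (log2 difference -2.29 ± 0.27, adjusted p = 1.5e-06), Klf4, 3.46-fold (log2 difference -1.79 ± 0.16, adjusted p = 5.04e-08), and Socs3, on 1 HC array, 6.02-fold (log2 difference -2.59 ± 0.38, adjusted p = 2.44e-05). Egr3 was higher (2.28-fold, log2 difference 1.19 ± 0.34, adjusted p = 0.00979) but did not pass without ENHC replicate 3 (adjusted p = 0.0541). The heat shock genes Hspa1b (at least 1.91-fold) and Hsph1 (2.13-fold, log2 difference 1.09 ± 0.28, adjusted p = 0.00478) were higher, while Hspa1a and Hspb1 were lower. Hspa1a did not pass without background correction (adjusted p = 0.0665) or in the deposited value table (adjusted p = 0.0666). Hspa1a and Hspa1b are near-identical copies, so that both values are uncertain. Both cell types went through the same dissociation, and the part of this response in other differences was not tested.

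Of 57 orthologues of human deafness genes, a list taken from the study, 28 were higher (49.1%) and 8 lower (14.0%) in HC. Over all genes the shares were 17.0% and 19.5%. The higher ones are spread over the bundle, synapse and transcription factor genes above, led by Lhfpl5, Pjvk and Cabp2. Among the lower ones, Otoa and Tecta belong to the tectorial membrane and Grhl2 to the epithelium, and the nuclear receptor Esrrb measured 4.48, 4.37 and 4.36 in HC, against 6.64, 7.93 and 7.58 in ENHC, on ENHC arrays alone and at least 4.36-fold lower (adjusted p = 2.56e-05).

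The same comparison was made in the vestibular system, on 6 separate arrays. The difference between organs was called for 1300 genes (10.8%), positive for 543 and negative for 757. Of the genes higher in cochlear HC, the difference was called more positive in the cochlea for 317 and in the vestibular system for 121. Of those lower in cochlear HC, it was called more negative in the cochlea for 450 and in the vestibular system for 66. These counts go by sign, not size: Vcan, at 1.93 in the cochlea and -2.87 in the vestibular system, is among the 317. For 106 genes the difference was called in opposite directions in the 2 organs.

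Cilium genes and ridge genes differed between the organs. Of 50 axoneme genes 48 were higher in vestibular HC, with a median of 3.18. Over all 12002 genes, 2039 were higher there, with a median of -0.03. The difference between organs was negative for 29 of the 50 and positive for none, against 757 negative and 543 positive of all 12002 genes. Of 37 intraflagellar transport genes 28 were higher in vestibular HC, and the difference between organs was negative for 5. In the greater ridge, sulcus and limbus list the cochlear difference was the more negative for 10 of 15 genes. Epyc differed by -7.23 ± 0.60 in the cochlea and by -1.41 ± 0.60 in the vestibular system (interaction -5.82 ± 0.85, adjusted p = 1.16e-04). These are fitted values, since no vestibular HC array and 1 vestibular ENHC array detected Epyc. The bound of its vestibular log2 difference was -0.66.

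**Figure D4:**
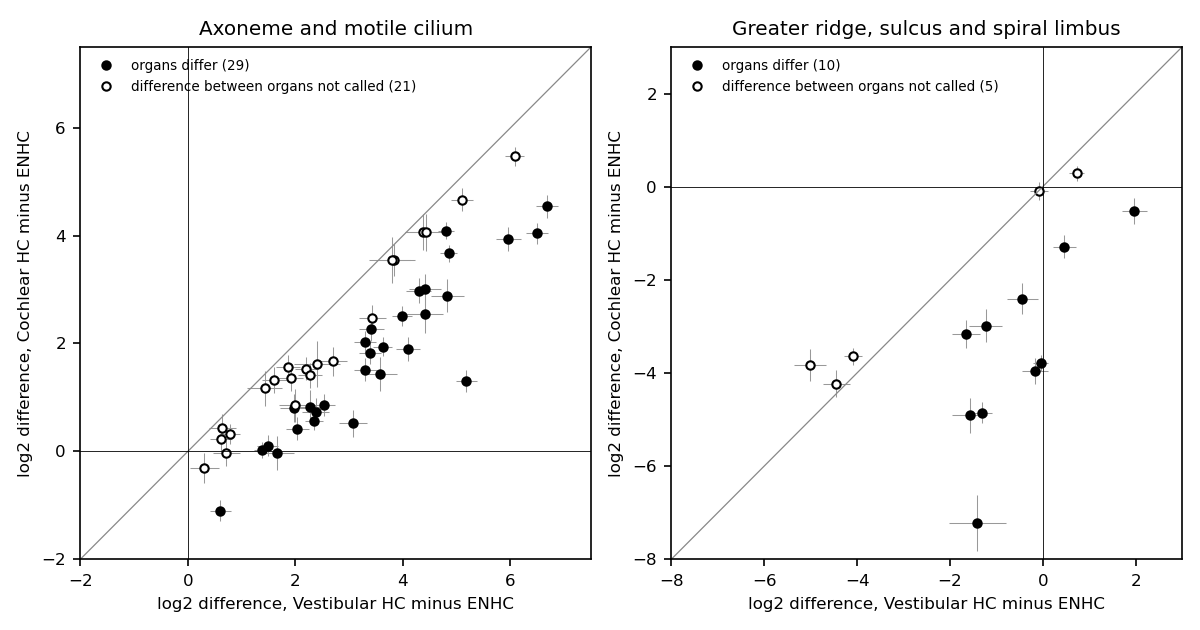
HC minus ENHC log2 difference (± SE) in the cochlea (vertical axis) against the vestibular system (horizontal axis) for 50 axoneme genes and 15 genes of the greater ridge, sulcus and limbus, with the line of equality. Filled points are genes whose difference was called between the organs, 29 axoneme genes and 10 ridge genes, all of them below the line.

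The largest differences between organs included genes that changed sign. Wfdc12, a secreted whey acidic protein family member, measured 7.53, 7.54 and 8.03 in HC, against 4.78, 4.46 and 4.83 in ENHC. It was at least 4.65-fold higher in cochlear HC, and its vestibular difference was -3.15 ± 0.20 (interaction 6.16 ± 0.28, adjusted p = 9.65e-11). The zinc finger gene Zfp503 differed by 3.43 ± 0.42 in the cochlea and -2.45 ± 0.42 in the vestibular system, the urea transporter Slc14a1 by 2.84 ± 0.14 and -2.10 ± 0.14, Vcan by 1.93 ± 0.28 and -2.87 ± 0.28, and Dpysl3, a cytoskeletal gene of growing neurites, by 3.45 ± 0.22 and -1.07 ± 0.22. The ion channel gene Pkd2l1 ran the other way, lower in cochlear HC at -2.72 ± 0.35 and higher in vestibular HC at 2.15 ± 0.35, as did Rai2, at -1.38 ± 0.25 and 2.77 ± 0.25. Prestin (Slc26a5) and Laptm5, a lysosomal membrane protein, were higher in cochlear HC and had vestibular differences of 0.15 ± 0.17 (adjusted p = 0.555) and 0.31 ± 0.68 (adjusted p = 0.773), with interactions of 5.33 ± 0.24, adjusted p = 9.65e-11 for Slc26a5 and 5.0 ± 0.96, adjusted p = 0.00152 for Laptm5. Kitl, the ligand of the receptor Kit, and Adgrg2, an adhesion receptor, differed by -4.45 ± 0.17 and -4.55 ± 0.31 in the cochlea, against -0.43 ± 0.17 and -0.12 ± 0.31 in the vestibular system. Adgrg2 lay near the limit of detection in both vestibular groups, at 5.35 on HC and 5.47 on ENHC arrays. It was detected on 2 vestibular HC arrays and 1 vestibular ENHC array. A pair of genes was undetected or nearly so on the cochlear HC and ENHC arrays and differed on the vestibular ones, Vit (vitrin, vestibular difference -4.69 ± 0.27) and the muscle intermediate filament Des (4.08 ± 0.30). No vestibular ENHC array detected Des, so its value is a fitted one, with a log2 bound of 3.41.

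**Figure D5:**
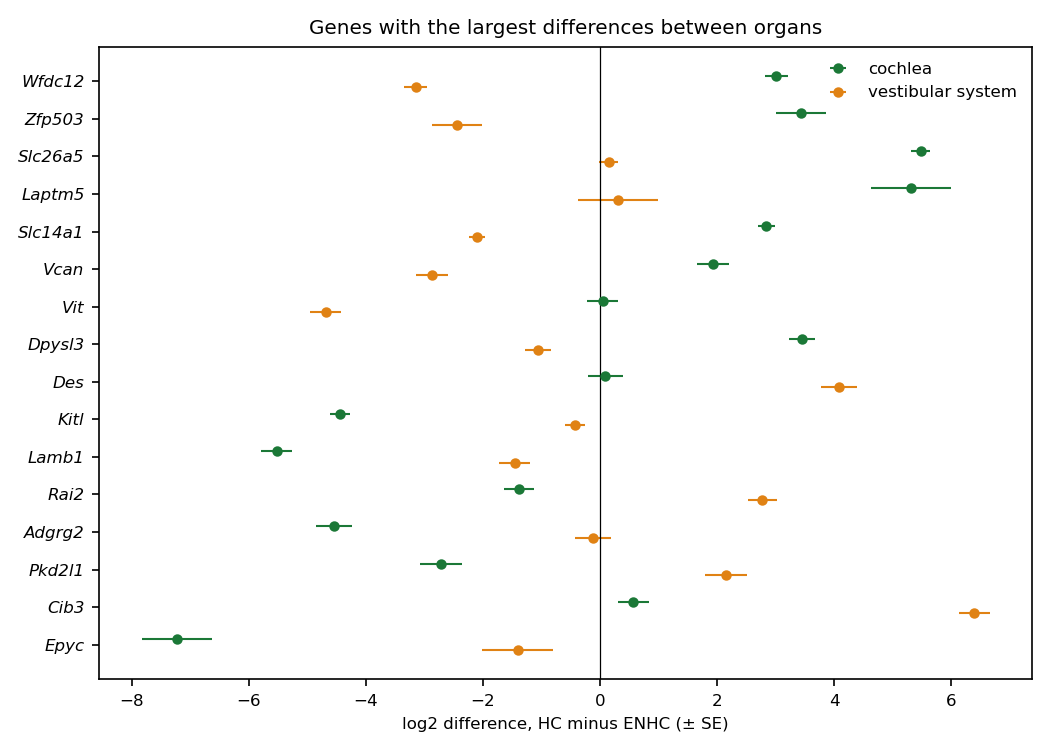
HC minus ENHC log2 difference (± SE) in the cochlea and in the vestibular system for the 16 genes with the largest differences between organs, 8 in each direction. Wfdc12, Zfp503, Slc14a1, Vcan and Dpysl3 lie on opposite sides of 0 in the 2 organs, as do Rai2 and Pkd2l1 in the other direction.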

How the data were processed

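RNA of 18 sorted samples, 3 per group, was amplified and hybridised by the authors to Illumina mouse BeadChips. The deposited table holds unnormalized probe intensity and a detection p-value per array, both per the file headers. Their second table, per the labels the deposited series values, is a quantile-normalized intensity within 0.289% of the same signals and served as an alternative. No version of Bead-Studio, which summarised the probes, was stated.

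Background was corrected with limma 3.58.1 in R 4.3.3 (normexp from the detection p-values, offset 16), followed by quantile normalization and log2. Of 45281 probes, 24352 were detected at p under 0.01 on at least 2 of 18 arrays, and 20146 of those carried 1 symbol. The brightest probe stood for each of 12002 genes, of which 5126 had several. One mean per group was fitted over all 18 arrays with lmFit and eBayes, 2-sided, with Benjamini-Hochberg adjustment over all genes and an adjusted p of 0.05. A gene undetected on all arrays of one side was bounded by the higher of the lowest detected signal and its own value on each array. No array duplicated another. The number of arrays limits the precision. The fit was tested on simulated data.

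Genes named with values were the 10 largest differences and 10 largest bounds in each direction, 3 called members of each list with up to 3 called the other way, all members of the hair cell, other epithelium, transcription factor and mechanotransduction lists, the 8 largest organ differences in each direction, and Epcam and Atoh1. Other names, and the 4 genes with printed promoters, were chosen after their values were seen. The lists and the comparison were chosen with earlier results of these data known.

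The labels give the arrays replicate numbers. Same-numbered HC and ENHC arrays of the cochlea deviated together, at correlations of 0.257 to 0.504 (median 0.431, against -0.466 to 0.0607 for other numbers). No label says what equal numbers share, so that pairing is inferred from these correlations alone. The replicate number was therefore also fitted as a block, while the main values come from the fit without it. Other alternatives were a larger offset, no background correction, median scaling, other detection filters, the mean of probes, probes in place of genes, an unmoderated model, array weights, the cochlear arrays alone and leaving out each array. Promoters were matched by Entrez gene ID to RefSeq on GRCm38.p6, for 9638 genes.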

Additional observations from a re-analysis of the deposited data

Results flagged for a closer look

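Of 250 genes that the text names, 90 had an HC to ENHC difference in the cochlea that differed from the vestibular one by the interaction contrast of the same limma fit (adjusted p under 0.05), against 1300 of 12002 genes overall (10.8%). The interaction was positive for 38 and negative for 52. Values are log2 differences between the cochlear and the vestibular HC minus ENHC difference. The 16 genes with the largest values were named for that reason. Many others were named for large cochlear differences in the same fit. The share among named genes therefore cannot be compared with the share over all genes.

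Genes that hair cells express were found in both directions. The difference was more positive in the cochlea for some transcription factors and inner or outer hair cell genes (4 of the inner and outer hair cell list, against 5 that were more negative), with values of 1.01 for Atoh1, 1.80 for Barhl1, 4.24 for Bcl11b, 3.57 for Insm1, 5.33 for Slc26a5 and 3.61 for Strip2. The difference was more positive too for the small GTPase gene Rasd2 (1.17). It was also more positive for some channel, pump and peptide genes, with values of 4.33 for Atp2a3, 1.48 for Scn11a and 1.27 for Grp. It was more negative for some calcium, bundle and channel complex genes and for the vesicle gene Sv2b, although 6 genes of the stereocilia list were more positive and 4 more negative, with values of -1.46 for Cabp2, -2.06 for S100b, -5.82 for Cib3, -0.78 for Ptprq, -1.66 for Clic5, -1.14 for Pls3 and -2.34 for Sv2b. The axoneme genes among them were more negative in the cochlea, with values of -1.70 for Dnah11, -1.41 for Drc1 and -2.46 for Fam183b. The factor genes not called in the cochlea were also negative, with values of -1.61 for Isl1 and -1.07 for Tbx2.

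In the ridge, sulcus and limbus list 10 genes were more negative in the cochlea and none more positive, and in the roof list 4 and 7. More negative nonsensory and matrix genes had values of -5.82 for Epyc, -3.34 for Bmp4, -3.53 for Otoa, -1.97 for Fst, -1.52 for Dcn, -1.75 for Lum and -3.90 for Oc90. More matrix, basement membrane and junction genes were negative, with values of -2.0 for Col11a1, -4.07 for Lamb1, -3.04 for Cldn11, -2.79 for Col1a2, -3.46 for Gpc3, -1.34 for Ogn, -1.93 for Sulf1 and -2.40 for Adamts9. The opposite sign was found for other matrix, junction and roof genes, with values of 4.80 for Vcan, 1.56 for Ncan, 1.80 for Zpld1, 4.73 for Vit, 1.68 for Tjp3, 1.14 for Cldn8, 2.11 for Atp1b2, 1.32 for Col3a1 and 2.66 for Pdgfra.

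Genes of the Notch pathway and of supporting cells took both signs, with values of 1.28 for Dll3, 1.64 for Mfng, -2.01 for Nrarp, -1.48 for Lfng, -1.63 for Sox2 and -1.18 for Sox9. So did those of the FGF, Wnt and polarity lists, with values of 2.46 for Fgf1, 0.86 for Fgf20, 3.12 for Etv1, -1.71 for Il17rd, 2.55 for Sp5, -2.94 for Frzb, -1.81 for Rspo2, -2.76 for Wnt5a, 1.31 for Insc and -2.02 for Fat4. Guidance, neurite and splicing genes likewise took both signs, with values of 3.17 for Efna5, -2.24 for Slit2, -1.77 for Slit3, -2.03 for Dcx, -2.09 for Stmn2, 4.52 for Dpysl3, 1.66 for Celf3 and -1.49 for Rbm47. For the cell cycle and dissociation genes the values were 1.46 for Ccnd2, 2.56 for Gadd45a, 2.35 for Egr3, -1.38 for Cdkn1c, -1.09 for Klf4 and -2.78 for Socs3. Further genes in no list were more positive in the cochlea in 6 cases. The values were 6.16 for Wfdc12, 5.88 for Zfp503, 5.0 for Laptm5, 4.95 for Slc14a1, 3.41 for Pcp4l1 and 1.37 for Mycbpap. Others in no list were more negative, with values of -4.87 for Pkd2l1, -4.44 for Adgrg2, -4.16 for Rai2, -4.01 for Kitl, -3.99 for Des, -3.38 for Ecrg4, -2.44 for Ces1d and -2.10 for Rnase1.

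Signal was also found outside the gene comparison. Of 4206 kept probes that carry no symbol or several, 541 were higher and 559 were lower in cochlear HC than in ENHC (26.2%, against 36.5% of genes), in the fit to all kept probes. They were left out of the gene comparison for lack of a single symbol.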

How the results depend on the processing

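The comparison was recomputed under 31 alternatives. Of 250 genes named or drawn by the naming rule, 215 kept their call in all of them, as did 208 of the 233 called ones. Of 7484 gene values, 7339 had the same call, and of 3060 counts and medians over the lists 233 moved. Leaving out 1 of the 18 arrays at a time gave 1754 to 2127 genes higher in HC, 1990 to 2437 lower and 1058 to 1312 with a difference between organs. Testing probes in place of genes gave 3837 higher, 3921 lower and 2113 that differed between organs, over 24352 probes. Array weights gave 2826 higher and 3223 lower, with 1567 interactions. Median scaling gave 1800 higher and 1776 lower, the replicate block 2371 and 2734 with 1741 interactions, and it ended no named call other than that of Tmc1.

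A few small differences, none of them called, changed sign. With array weights Des fitted -0.047 and Ush1c -0.060. Over the fits that left out 1 array, Des ranged from -0.14 (without HC replicate 1) to 0.21, Ush1c from -0.046 (without ENHC replicate 2) to 0.13, Gjb6 from -0.17 to 0.095 (without HC replicate 1), Gjb2 from -0.23 to 0.076 (without ENHC replicate 1), Jazf1 from -0.037 (without ENHC replicate 3) to 0.22 and Jag1 from -0.38 to 0.020 (without ENHC replicate 3). The cause was not tested. With 3 arrays a side and signals near background, a gene detected on few arrays has a bound or no usable ratio.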
